A study of Mus musculus with 8 samples.

Results

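The 38 genes described here encode the machinery of regulated exocytosis, the release of stored secretory granules on demand. They were taken by name from a list of Rab GTPases, Rab effectors, SNARE proteins, priming factors, exocyst subunits and recycling proteins. All 38 were found among the 54838 genes of the count tables, and all 38 were among the 19358 genes with enough reads to be tested. They took 0.217% to 0.250% of the reads in genes.

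The tissue was the submandibular gland, a major salivary gland, of male mice, sequenced in 4 libraries of wild-type C57BL/6J animals (WT) and 4 of Dp16 animals. The Dp16 line, B6.129S7-Dp(16Lipi-Zbtb21)1Yey/J, is a mouse model of Down syndrome that carries an extra copy of the part of chromosome 16 between Lipi and Zbtb21; the labels call its genotype transgenic and give strain C57BL/6J for both groups. Glands were cleared of surrounding connective tissue and fat, and total RNA was sequenced after removal of ribosomal RNA. No treatment is named, age is not given in the sources used here, and the labels do not say whether each library came from a separate mouse, so p-values measure only the spread between these samples.

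In an exocrine gland cell, granules filled with secretory protein wait under the apical membrane until a stimulus arrives. Rab GTPases of the Rab3 and Rab27 families sit on the granule and recruit effectors that link it to actin, to motors and to the plasma membrane. The exocyst, a complex of 8 subunits, holds a vesicle at its target. Fusion is driven by a vesicle SNARE of the Vamp family that zippers with a syntaxin and a Snap protein on the target membrane, helped by Sec1/Munc18 and Munc13 proteins and triggered by calcium sensors. The ATPase Nsf with its adaptor Napa then takes the spent SNARE bundle apart for reuse. In salivary glands, Rab3d, Rab27, Vamp8 and Snap23 are among the proteins studied on secretory granules.

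None of the 38 genes lies in the duplicated segment. They are spread over 15 chromosomes, and the 1 member on chromosome 16, Snap29, lies outside the segment. As a check of the labels, 84 of 88 protein-coding genes tested in the segment were higher in Dp16 and 28 passed the test upward, at a median log2 difference of 0.59 between genotypes. Gene reads ran from 90790542 to 115729892 per library. Products of the labelled tissue were abundant: the acinar markers, Mucl2 and Pip among them, together reached a summed level of 264971 to 373255 CPM (reads in the gene scaled to a common library size by TMM) in WT and 233402 to 317923 in Dp16. Those of the granular duct, kallikreins and growth factors, reached a summed level of 131003 to 229056 CPM in WT and 77851 to 160487 in Dp16.

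Promoter sequence is shown for 3 members on which the results turn: Unc13b, the most abundant by reads, and the pair Rab3a and Rab3d, whose ratio did not overlap between the genotypes. Each is the 250 bases before the RefSeq transcript start, on GRCm38.p6, read 5′ to 3′ on the gene's own strand. Capitals mark GGGCGG, the core of a GC box, and CCAAT, each on either strand (CCGCCC and ATTGG). The windows are chr4:43058703-43058952 (plus strand) for Unc13b, chr8:70754453-70754702 (plus strand) for Rab3a and chr9:21918184-21918433 (minus strand) for Rab3d. Each lies directly upstream of its gene, and the last bases of the Rab3a and Rab3d windows fall in the first exon that GENCODE gives.
Unc13b: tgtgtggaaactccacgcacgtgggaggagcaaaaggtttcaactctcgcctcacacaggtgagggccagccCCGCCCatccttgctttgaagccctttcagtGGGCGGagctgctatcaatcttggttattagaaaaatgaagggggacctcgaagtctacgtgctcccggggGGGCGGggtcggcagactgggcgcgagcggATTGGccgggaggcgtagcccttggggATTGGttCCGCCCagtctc
Rab3a: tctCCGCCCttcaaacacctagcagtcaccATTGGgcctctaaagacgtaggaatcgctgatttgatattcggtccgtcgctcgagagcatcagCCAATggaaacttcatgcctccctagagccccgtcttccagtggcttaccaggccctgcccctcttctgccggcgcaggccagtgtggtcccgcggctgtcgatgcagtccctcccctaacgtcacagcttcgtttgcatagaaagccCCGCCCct
Rab3d: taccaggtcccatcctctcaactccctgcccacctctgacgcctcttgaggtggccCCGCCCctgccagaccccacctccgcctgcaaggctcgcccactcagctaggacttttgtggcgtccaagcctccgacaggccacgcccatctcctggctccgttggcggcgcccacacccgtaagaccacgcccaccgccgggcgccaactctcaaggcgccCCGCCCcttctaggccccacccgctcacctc
The Unc13b window holds 4 copies of GGGCGG and 2 of CCAAT, the Rab3a window 2 and 2, and the Rab3d window 2 and 0. GGGCGG is present in 32.7% and CCAAT in 33.8% of 32851 mouse promoter windows of the same length. The general E-box CANNTG occurs 2 times in the printed Unc13b window and 0 times in the printed windows of Rab3a and Rab3d, against 66.2% of windows with at least 1. RefSeq gives Rab3a a second start, whose window (chr8:70754852-70755101, not printed) holds 0 GGGCGG, 0 CCAAT and 3 CANNTG. These matches describe the letters only. Of the 38 members, 31 had a window in the RefSeq table.

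Levels were compared between genes as CPM per kilobase of merged exon length, because a longer transcript yields more reads. A pair of genes stood far above the rest in WT: Vamp8, a vesicle SNARE, at 57.2 ± 7.43 and Unc13b, a Munc13 priming factor also called Munc13-2, at 52.9 ± 3.33 CPM per kb (SD, n = 4). By longest transcript they had 63.7 and 81.5, so their order depends on the length used. Counts per gene do not show which exons of Unc13b carry the reads, so its transcript form in the gland, and whether it encodes the full priming factor, could not be checked. By merged exons Rab27a followed at 28.3 ± 1.29 and Rab3d at 19.2 ± 0.843. Next came the target membrane SNARE Snap23 at 17.4 ± 0.784, then Scamp2 at 16.6 ± 1.29 and Scamp1 at 15.9 ± 0.417. At the other end were Rab3b (0.037 ± 0.0252), Sytl2 (0.0458 ± 0.00978) and Syt7 (0.056 ± 0.0123), the last a calcium sensor of slow granule release. The members thus spanned more than 3 orders of magnitude in 1 tissue, as the plot of levels per kilobase shows.

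**Figure D1:**
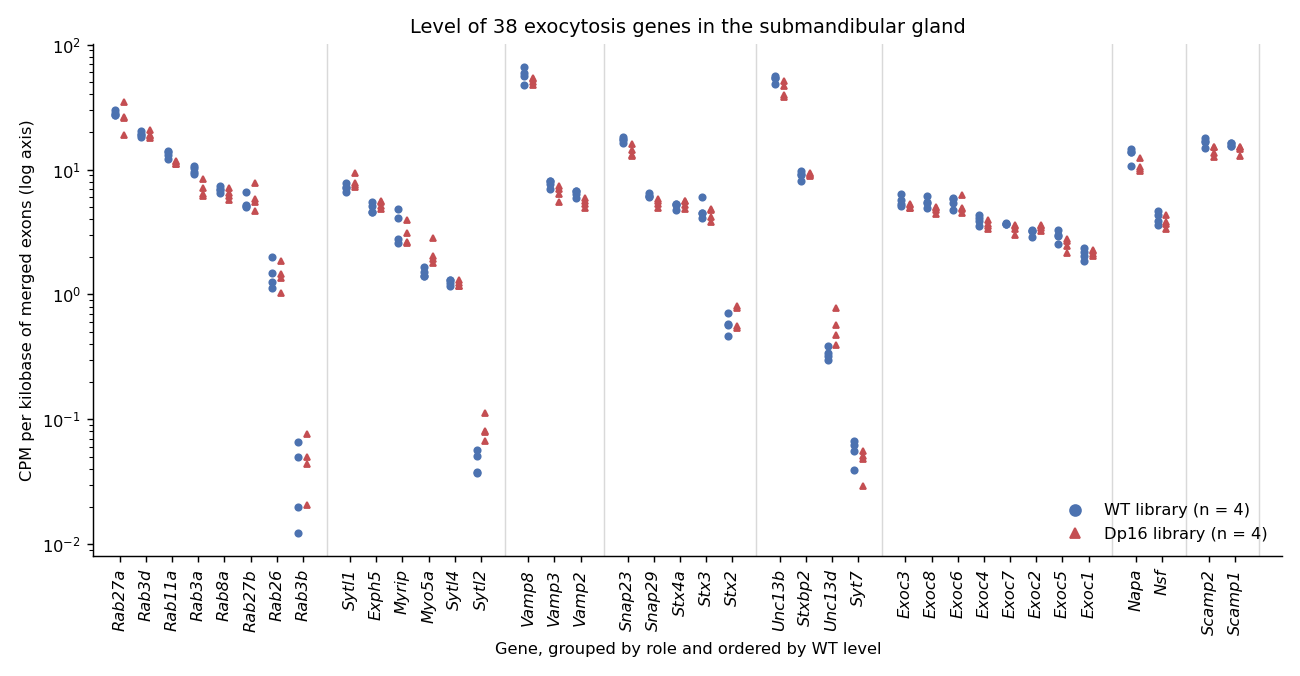
Level of each of the 38 genes in CPM per kilobase of exon (vertical log axis), grouped by role and ordered by WT level. Each library is 1 point (blue circles WT, red triangles Dp16). Vamp8 and Unc13b lie at the top in all 8 libraries and Rab3b, Sytl2 and Syt7 at the bottom. For most genes the blue and red points overlap.

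Against this wide range between genes, the differences between genotypes were small. By edgeR's quasi-likelihood test with Benjamini-Hochberg adjustment over all genes tested, 0 of the 38 members passed an adjusted p below 0.05, against 0.625% of all genes tested (121 genes; 0.47% higher and 0.155% lower in Dp16). At an adjusted p below 0.10 edgeR listed 4 members, against 6.76% of all genes: Sytl2 and Myo5a higher (background 3.85%) and Rab3a and Snap23 lower (background 2.9%). DESeq2 passed 5 members against 10.2% of all genes, with Sytl2, Myo5a and Unc13d upward (5.82%) and Rab3a and Snap23 downward (4.33%). Limma-voom passed 1 member against 2.05% of all genes, Rab3a, downward (0.77%). At an unadjusted p below 0.05 edgeR listed 12 of 38 members (31.6%), against 24.6% of all genes: 9 lower in Dp16 (11.9% of all genes) and 3 higher (12.7%). The 4 WT and 4 Dp16 libraries did not overlap for 9 members, against 14.1% of all genes: 6 lower in Dp16 (background 6.96%) and 3 higher (background 7.11%).

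Most members were slightly lower in Dp16 by value. The log2 fold change was below 0 for 26 of 38 (68.4%), against 48.9% of all genes tested, with a median of -0.12 (quartiles -0.22 and 0.05) against a median of 0.01 over all genes (-0.19 and 0.30). Well-expressed genes in general leaned the same way: of 7134 protein-coding genes with a mean of at least 10 CPM, a background chosen after seeing the data, 66.8% were below 0, with a median of -0.08. Of the 31 members at that level 23 (74.2%) were below 0, with a median of -0.13. At an unadjusted p below 0.05 there were 10 of those 31, against 28.3% of the 7134 genes, and 7 had groups that did not overlap, against 16.1%.

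The precision of most members was good. For 30 of 38, the 95% confidence interval of the fold change lay inside 1.5-fold in either direction, the ratio of 3 gene copies to 2, against 43.7% of all genes tested. Among the 31 members with at least 10 CPM it was 28, against 76.7% of the protein-coding genes at that level. The 8 members whose interval reached past 1.5-fold were Rab3a, Rab3b, Sytl2, Myrip, Myo5a, Stx2, Unc13d and Syt7. Rab3b had 5 to 29 reads per library and Syt7 21 to 50, so a change of moderate size in them was not detectable at this depth. Exon bases are shared with another gene by 10 members, and their counts are uncertain to that extent. Among them are Rab3a (29 bases), Rab11a (107), Snap29 (60), Exoc7 (293), Syt7 (384) and Exoc5 (528). Rab26 shares 267 bases with Traf7, a protein-coding gene on the same strand. In bulk tissue, fewer cells of a type and less RNA per cell cannot be told apart, and this holds for every member below.

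**Figure D2:**
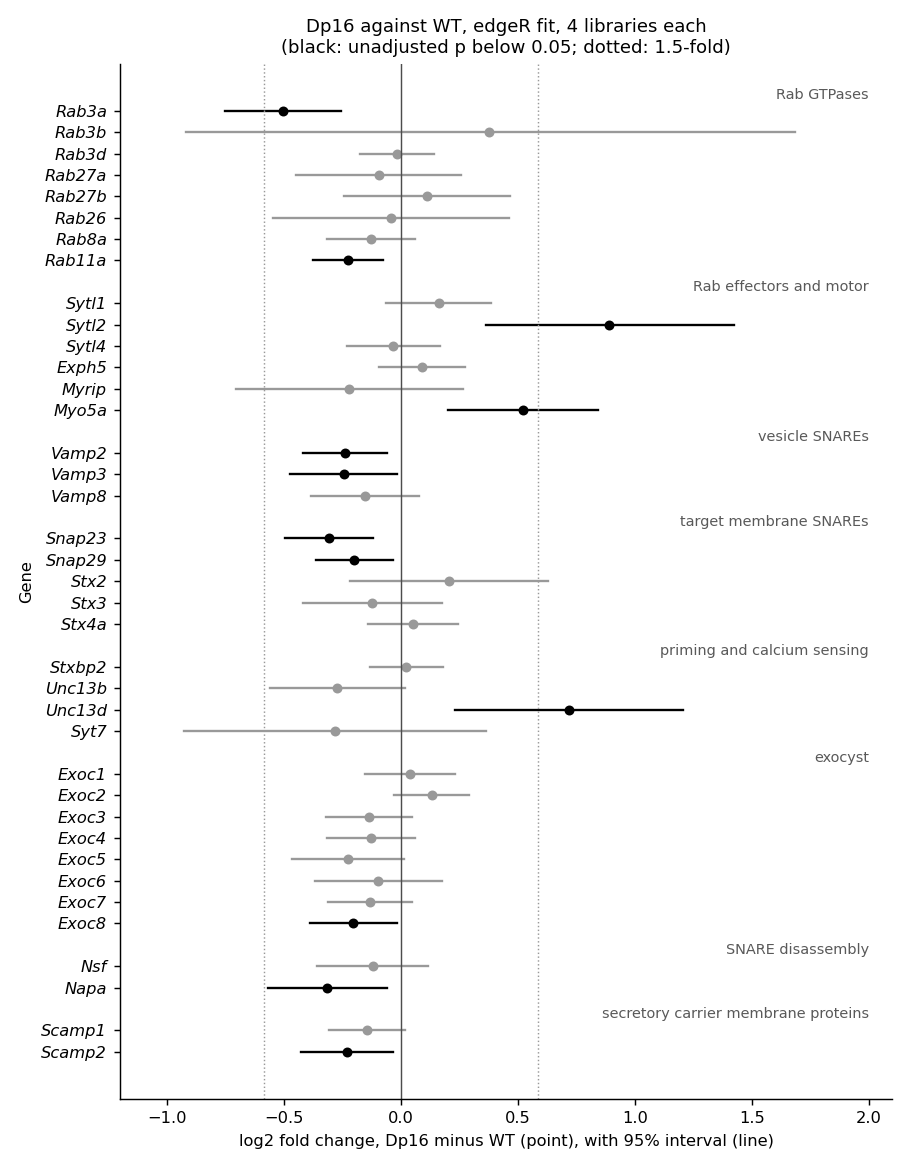
Log2 fold change of Dp16 against WT for each of the 38 genes (points) with its 95% confidence interval (bars) from edgeR, ordered by role, with black for an unadjusted p below 0.05 and dotted lines at 1.5-fold in either direction. Rab3a is the lowest of the black points, Sytl2, Unc13d and Myo5a are the 3 black points above 0, and no gene passed after adjustment.

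Among the Rab GTPases, Rab3a was the member with the smallest adjusted p. Rab3a, the Rab3 best known from synaptic vesicles, had 20.4, 23.0, 23.6 and 21.2 CPM in the WT libraries and 15.8, 13.6, 14.1 and 18.7 CPM in the Dp16 libraries. Each Dp16 library was below each WT library, with Dp16 replicate 4 the closest to WT. The fold change was 0.706 (log2 fold change -0.50, SE 0.11, adjusted p = 0.0677, 95% interval -0.75 to -0.26), which missed the threshold in edgeR. DESeq2 gave an adjusted p of 0.00319 and limma-voom 0.0448. Leaving out each library in turn gave adjusted p-values of 0.0502 to 0.172 in edgeR.

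Its paralog Rab3d, the Rab3 of exocrine secretory granules, did not share this pattern. Rab3d had 76.8, 80.7, 85.3 and 79.7 CPM in the WT libraries and 86.4, 78.9, 78.1 and 75.4 CPM in the Dp16 libraries, and the groups overlapped (log2 fold change -0.02, SE 0.0702, adjusted p = 0.901, 95% interval -0.17 to 0.14). Per kilobase, Rab3d stood above Rab3a in all 8 libraries, by 1.94-fold ± 0.0642 in WT against 2.76-fold ± 0.421 in Dp16 (SD, n = 4 each). The log2 ratio of Rab3a to Rab3d in CPM went from -1.87 in WT to -2.36 in Dp16. This difference of -0.49 had the smallest p the design allows (exact permutation p = 0.0286, two-sided; 0.0929 after adjustment over 13 paralog pairs), with no overlap between groups. Rab3b was nearly absent from the gland in both groups, with 0.232, 0.177, 0.0694 and 0.0434 CPM in the WT libraries and 0.0731, 0.156, 0.269 and 0.176 CPM in the Dp16 libraries (log2 fold change 0.38, SE 0.578, adjusted p = 0.707).

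Markers of nerve were looked at beside Rab3a, since neurons use it. Of 20 such markers 12 were tested, and 11 of these were higher in Dp16 by value, with a median log2 fold change of 0.62 and 0 passing the edgeR test. Their summed level was 5.22 to 7.21 CPM in WT and 7.66 to 11.2 in Dp16. The autonomic markers Chat, Slc18a3, Th and Dbh were too low to test, so no direction is given for them. The part of nerve in the Rab3a result was not tested.

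The Rab27 pair serves granule docking in many secretory cells. Rab27a had 106, 117, 110.3 and 106 CPM in the WT libraries and 101, 102, 73.2 and 135 CPM in the Dp16 libraries, the widest spread of the abundant Rabs in Dp16 (log2 fold change -0.09, SE 0.158, adjusted p = 0.734). Rab27b had 70.9, 53.1, 55.6 and 55.0 CPM in the WT libraries and 58.8, 82.9, 49.5 and 62.3 CPM in the Dp16 libraries, with WT replicate 1 and Dp16 replicate 2 highest (log2 fold change 0.11, SE 0.157, adjusted p = 0.682). Neither differed beyond the spread between libraries. Per kilobase Rab27a was 3.4 to 6.06 times Rab27b over the 8 libraries. Dividing by the longest transcript instead of merged exons gave 2.69 to 4.79, so the order held under both lengths. A processed pseudogene shares 149 exon bases with Rab27a on the same strand, and its reads cannot be separated there.

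Rab11a, a Rab of recycling endosomes and apical delivery, was lower in Dp16 by a small and even step. It had 42.3, 41.1, 36.6 and 38.9 CPM in the WT libraries and 35.1, 34.6, 32.9 and 33.3 CPM in the Dp16 libraries. The groups did not overlap (log2 fold change -0.22, SE 0.0666, adjusted p = 0.105), and the interval of -0.37 to -0.07 stayed within 1.5-fold. Rab8a, which works beside it at the apical membrane, had 30.2, 34.8, 32.6 and 32.3 CPM in the WT libraries and 26.7, 33.3, 28.6 and 30.4 CPM in the Dp16 libraries, with overlap (log2 fold change -0.13, SE 0.0837, adjusted p = 0.365). Rab26, a Rab described in acinar granule maturation, had only 3.18 to 5.71 CPM in WT and 2.92 to 5.3 in Dp16 (log2 fold change -0.04, SE 0.224, adjusted p = 0.926). In level per kilobase Rab11a exceeded Rab8a and Rab8a exceeded Rab26 in all 8 libraries.

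The effectors that read Rab27 and Rab3 differed in abundance. Exph5 (Slac2-b), a Rab27 effector, had 4.94 ± 0.428 CPM per kb in WT, Sytl1 (Slp1) 7.19 ± 0.494, Myrip (Slac2-c, an adaptor to myosin) 3.57 ± 1.07 and Sytl4 (granuphilin) 1.25 ± 0.062 (SD, n = 4). By longest transcript they had 8.72, 7.28, 4.03 and 1.71, so the order of Exph5 and Sytl1 depends on the length used. None of these 4 differed between groups beyond the spread, with log2 fold changes of 0.09, 0.16, -0.22 and -0.03 and edgeR adjusted p-values of 0.515, 0.332, 0.547 and 0.842. Sytl1, the most abundant of the 3 Slp members, had 17.9, 18.3, 19.6 and 16.6 CPM in the WT libraries and 19.8, 23.8, 19.1 and 18.2 CPM in the Dp16 libraries. Myrip varied most of the 4, from 14.3 to 26.7 CPM in WT and 14.2 to 21.7 in Dp16.

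Sytl2 and Myo5a were higher in each Dp16 library than in any WT library. Sytl2 (Slp2-a), which tethers Rab27 vesicles to the plasma membrane, had 0.715, 0.791, 0.526 and 0.521 CPM in the WT libraries and 0.932, 1.13, 1.57 and 1.11 CPM in the Dp16 libraries. Its fold change was 1.85 (log2 fold change 0.89, SE 0.235, adjusted p = 0.085, 95% interval 0.36 to 1.42), from 53 to 169 reads per library. Myo5a, the actin motor that carries granules, had 22.3, 24.5, 20.7 and 20.9 CPM in the WT libraries and 29.8, 26.6, 42.2 and 28.4 CPM in the Dp16 libraries, with Dp16 replicate 3 far above the other Dp16 libraries. Its fold change was 1.44 (log2 fold change 0.52, SE 0.142, adjusted p = 0.0903, 95% interval 0.20 to 0.84). DESeq2 gave adjusted p-values of 0.0103 for Sytl2 and 0.0247 for Myo5a, and limma-voom 0.0776 and 0.064.

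The balance of Sytl paralogs differed with the group by value. The log2 ratio of Sytl1 to Sytl2 was 4.81 in WT and 4.09 in Dp16, and that of Sytl4 to Sytl2 was 3.32 and 2.42. Neither pair of groups overlapped (exact permutation p = 0.0286 for each, the smallest possible; 0.0929 after adjustment over 13 pairs). Sytl2 is shared by both ratios. Even in Dp16, Sytl2 was the least abundant of the 3 per kilobase in all 4 libraries.

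Of the priming factors, Unc13b carried the largest share of all reads in the 38 genes, 48.5% of member CPM in WT and 45.6% in Dp16. It ranked 39 among all genes of the gland by mean CPM, and 338 per kilobase. Unc13b had 1225, 1225, 1268 and 1093 CPM in the WT libraries and 1055, 892, 865 and 1175 CPM in the Dp16 libraries. The 3 lowest libraries were Dp16, but Dp16 replicate 4 lay inside the WT range (log2 fold change -0.27, SE 0.128, adjusted p = 0.225, 95% interval -0.56 to 0.02), so the difference did not exceed the spread. Within Dp16, Unc13b and Rab27a were both lowest in replicate 3 and highest in replicate 4. These libraries also had the lowest and highest summed granular duct markers (103227, 128257, 77851 and 160487 CPM in Dp16 replicates 1 to 4, and 131003, 173065, 229056 and 133021 in WT). Between these extremes, Dp16 replicate 2 had less Unc13b than replicate 1 but a higher marker sum. In WT the sum was highest in replicate 3, as was Unc13b, whereas Rab27a was highest in replicate 2. All 18 granular duct markers tested were lower in Dp16 by value, with 1, Klk1, passing the test; their part in the levels of Unc13b and Rab27a was not tested.

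Unc13d (Munc13-4), the Munc13 of lysosome-related granules in blood cells, was the rare paralog and leaned the other way. It had 1.5, 1.82, 1.58 and 1.41 CPM in the WT libraries and 2.21, 1.85, 3.64 and 2.68 CPM in the Dp16 libraries, with Dp16 replicate 2 just above the highest WT library. Its fold change was 1.64 (log2 fold change 0.72, SE 0.217, adjusted p = 0.109, 95% interval 0.23 to 1.21), and DESeq2 gave an adjusted p of 0.0275. Per kilobase, Unc13b exceeded Unc13d 158-fold ± 13.5 in WT against 84.2-fold ± 23.9 in Dp16 (SD, n = 4 each). The log2 ratio of Unc13d to Unc13b in CPM went from -9.56 to -8.61 with no overlap (exact permutation p = 0.0286, the smallest possible; 0.0929 after adjustment over 13 pairs).

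Stxbp2 (Munc18-2), the Sec1/Munc18 partner of epithelial syntaxins, was among the steadiest members. It had 37.4, 40.3, 38.2 and 33.7 CPM in the WT libraries and 37.2, 37.3, 38.3 and 39.4 CPM in the Dp16 libraries (log2 fold change 0.02, SE 0.0698, adjusted p = 0.852), and the interval of -0.13 to 0.18 left room for only a small change. Syt7 had 0.503, 0.292, 0.466 and 0.416 CPM in the WT libraries and 0.384, 0.416, 0.362 and 0.217 CPM in the Dp16 libraries, with overlap (log2 fold change -0.28, SE 0.286, adjusted p = 0.564).

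**Figure D3:**
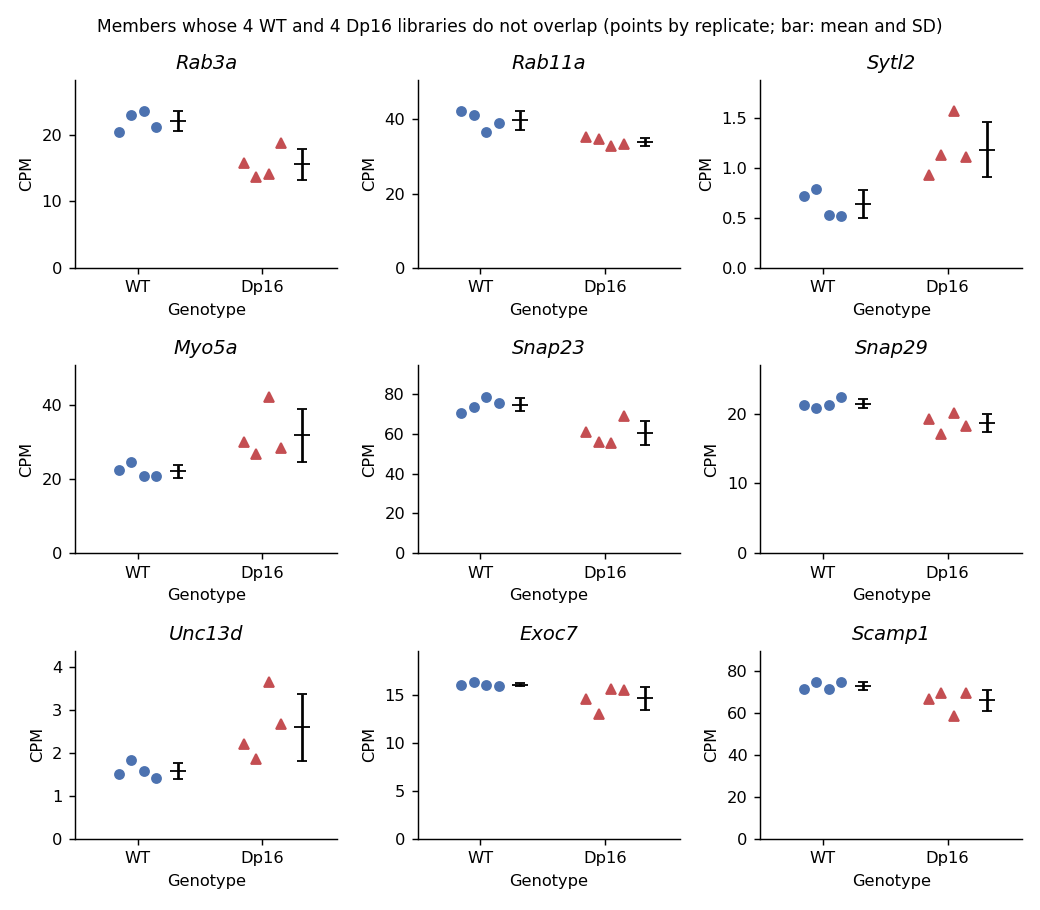
CPM of the 9 members whose WT (blue circles) and Dp16 (red triangles) libraries did not overlap, 1 point per library, with the mean and SD of each group as bars. Rab3a, Rab11a, Snap23, Snap29, Exoc7 and Scamp1 were lower in each Dp16 library than in each WT library, and Sytl2, Myo5a and Unc13d were higher.

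Markers of lymphocytes were also higher in Dp16 by value. All 18 lymphoid markers tested had positive log2 fold changes, with a median of 1.79, and 1, Klrd1, a receptor of natural killer cells, passed the edgeR test. DESeq2 passed 17 of the 18 and limma-voom 3, all higher, and 18 had an unadjusted edgeR p below 0.05. Their summed level was 17.3, 20.3, 18.3 and 15.5 CPM in the WT libraries and 47.1, 20.8, 68.8 and 36.4 CPM in the Dp16 libraries. Dp16 replicate 3 was highest in this sum and in Sytl2, Unc13d and Myo5a. Across the Dp16 libraries Myo5a had the same order as the sum (29.8, 26.6, 42.2 and 28.4 CPM in replicates 1 to 4). Sytl2 did not: Dp16 replicate 1, second in the sum, had the lowest Sytl2 of the Dp16 libraries. Dp16 replicate 2 had the lowest sum, Unc13d and Myo5a of the Dp16 libraries. In that library Sytl2 had 1.13 CPM (highest WT library 0.791), Unc13d 1.85 (highest WT library 1.82) and Myo5a 26.6 (highest WT library 24.5). Macrophage markers reached a summed level of 311 to 363 CPM in WT and 289.9 to 491 in Dp16. The part of these cells in the 3 results was not tested.

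**Figure D4:**
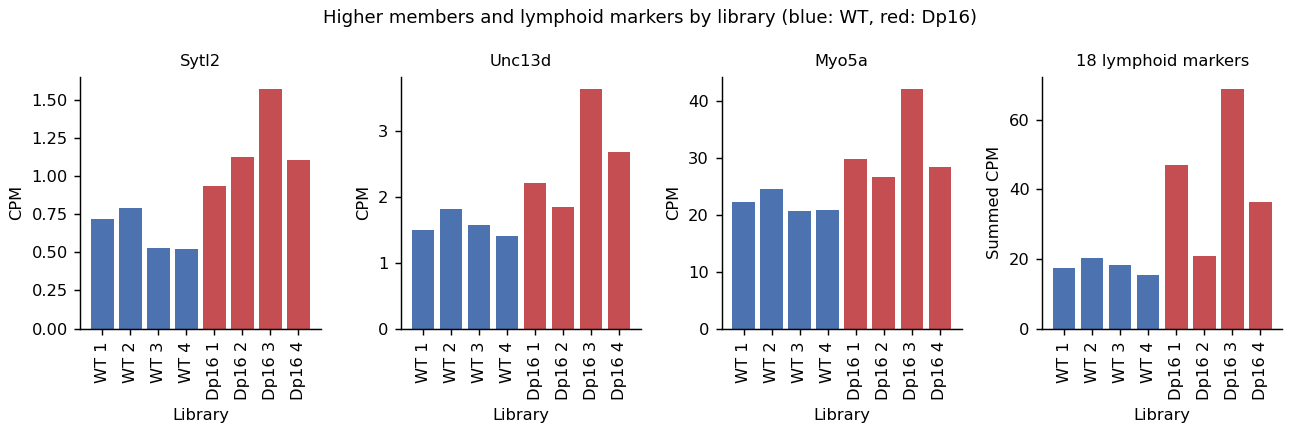
CPM of Sytl2, Unc13d and Myo5a and the summed CPM of 18 lymphoid markers in each of the 8 libraries (bars from 0, blue WT, red Dp16). Dp16 replicate 3 has the highest bar in all 4 panels, and Dp16 replicate 2 has the lowest Dp16 lymphoid sum, 20.8 CPM; the part of lymphocytes in the 3 genes was not tested.

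Vesicle SNAREs were ordered clearly at the top and not below it. Vamp8, the granule SNARE of many exocrine cells, had 129.6, 136, 152 and 111 CPM in the WT libraries and 110.4, 116, 126 and 123 CPM in the Dp16 libraries, with overlap (log2 fold change -0.15, SE 0.103, adjusted p = 0.376). Per kilobase it exceeded Vamp3 6.23 to 9.15-fold over the 8 libraries. Vamp3 (cellubrevin) and Vamp2 (synaptobrevin) were close, with Vamp3 higher per kilobase in 7 of 8 libraries and in 4 of 8 by longest transcript, so their order was not settled.

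Both lesser Vamps were lower in Dp16 by value. Vamp2 had 25.7, 25.5, 22.7 and 24.1 CPM in the WT libraries and 21.3, 22.7, 18.9 and 20.1 CPM in the Dp16 libraries, and Dp16 replicate 2 (22.74) just exceeded the lowest WT library (22.65) (log2 fold change -0.24, SE 0.0799, adjusted p = 0.129, 95% interval -0.42 to -0.06). Vamp3 had 20.2, 23.5, 23.5 and 22.3 CPM in the WT libraries and 21.2, 15.9, 18.5 and 20.1 CPM in the Dp16 libraries, with Dp16 replicate 1 inside the WT range (log2 fold change -0.24, SE 0.101, adjusted p = 0.182, 95% interval -0.47 to -0.02). The log2 ratios of Vamp2 and of Vamp3 to Vamp8 overlapped between groups, with exact permutation p-values of 0.60 and 0.457.

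Snap23, the widely expressed partner of exocrine syntaxins, had the smallest p of the target membrane SNAREs. It had 70.6, 73.6, 78.6 and 75.4 CPM in the WT libraries and 61.1, 55.9, 55.6 and 68.7 CPM in the Dp16 libraries, each Dp16 library below each WT library, with Dp16 replicate 4 nearest. Its fold change was 0.809 (log2 fold change -0.31, SE 0.0836, adjusted p = 0.0909, 95% interval -0.49 to -0.12). DESeq2 gave an adjusted p of 0.0267, limma-voom 0.0664, and edgeR with each library left out 0.0676 to 0.196. Snap29, which also serves autophagosome fusion, had 21.2, 20.8, 21.3 and 22.4 CPM in the WT libraries and 19.3, 17.1, 20.0 and 18.3 CPM in the Dp16 libraries, again without overlap (log2 fold change -0.20, SE 0.0732, adjusted p = 0.151). Per kilobase Snap23 stayed above Snap29 in all 8 libraries, 2.79-fold in WT and 2.6-fold in Dp16, and their ratio did not separate the groups (exact permutation p = 0.314).

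The 3 syntaxins did not differ between groups beyond their spread. Stx4a, the basolateral syntaxin, had 5.13 ± 0.282 CPM per kb in WT, Stx3, the apical syntaxin, 4.77 ± 0.855, and Stx2 0.583 ± 0.101 (SD, n = 4). Stx4a and Stx3 were too close to order, Stx4a being higher in 7 of 8 libraries and in 5 of 8 by longest transcript, whereas Stx3 exceeded Stx2 in all 8. Log2 fold changes were 0.05, -0.12 and 0.21, with edgeR adjusted p-values of 0.728, 0.589 and 0.517. Stx4a had 11.2, 12.5, 12.6 and 12.2 CPM in the WT libraries and 11.3, 13.3, 13.3 and 12.4 CPM in the Dp16 libraries. Stx2, the rarest, had 2.63, 3.27, 2.66 and 2.14 CPM in the WT libraries and 3.55, 2.48, 3.71 and 2.58 CPM in the Dp16 libraries. In CPM, Stx3 ran from 23.4 to 34.4 in WT, with replicate 3 highest, and from 21.7 to 27.5 in Dp16.

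The exocyst subunits lay close together. All 8 had levels between 2.11 ± 0.21 (Exoc1) and 5.6 ± 0.552 (Exoc3) CPM per kb in WT (SD, n = 4), and for all 8 the 95% interval of the fold change lay within 1.5-fold. By longest transcript the ends in WT were Exoc5 at 4.17 and Exoc4 at 10.4. The order among neighbours was mostly not separated: the orders Exoc8 over Exoc4 and Exoc5 over Exoc1 held in 8 of 8 libraries by merged exons and in 0 of 8 by longest transcript. By value 6 subunits were lower in Dp16 and 2, Exoc1 and Exoc2, higher. Exoc3, a core subunit, had 31.5, 34.3, 30.5 and 37.9 CPM in the WT libraries and 29.5, 32.1, 29.7 and 31.0 CPM in the Dp16 libraries. Exoc1 (Sec3) had 24.5, 26.3, 22.5 and 28.4 CPM in the WT libraries and 25.6, 27.5, 24.5 and 26.8 CPM in the Dp16 libraries, again with overlap (log2 fold change 0.04, SE 0.0852, adjusted p = 0.795).

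Exoc8 had an unadjusted p below 0.05, and Exoc7 had groups that did not overlap. Exoc8, an exocyst subunit that binds Ral GTPases, had 22.5, 24.8, 25.5 and 28.1 CPM in the WT libraries and 22.6, 22.0, 20.4 and 22.9 CPM in the Dp16 libraries, with Dp16 replicates 1 and 4 just inside the WT range (log2 fold change -0.20, SE 0.0828, adjusted p = 0.179). Exoc7, the subunit that binds membrane phosphoinositides, had 16.0, 16.3, 16.0 and 16.0 CPM in the WT libraries and 14.6, 13.0, 15.6 and 15.5 CPM in the Dp16 libraries, without overlap but with a small step (log2 fold change -0.13, SE 0.0795, adjusted p = 0.322). The log2 fold changes of Exoc2, Exoc3, Exoc4, Exoc5 and Exoc6 were 0.13, -0.14, -0.13, -0.23 and -0.10, with edgeR adjusted p-values of 0.275, 0.324, 0.366, 0.222 and 0.639.

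SNARE disassembly was lower by value mainly in the adaptor. Napa (alpha-SNAP) had 40.7, 55.5, 52.6 and 52.4 CPM in the WT libraries and 38.2, 46.9, 37.0 and 39.9 CPM in the Dp16 libraries; WT replicate 1 fell among the Dp16 libraries (log2 fold change -0.31, SE 0.113, adjusted p = 0.146, 95% interval -0.57 to -0.06). Nsf had 32.1, 39.0, 30.1 and 36.4 CPM in the WT libraries and 30.8, 31.6, 28.0 and 36.2 CPM in the Dp16 libraries, with broad overlap (log2 fold change -0.12, SE 0.106, adjusted p = 0.501). The ratio of the pair overlapped between groups (exact permutation p = 0.257).

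The secretory carrier membrane proteins Scamp1 and Scamp2, tetraspanning proteins of recycling and secretory vesicles, were both lower by value. Scamp1 had 71.2, 74.6, 71.3 and 74.5 CPM in the WT libraries and 66.7, 69.3, 58.6 and 69.3 CPM in the Dp16 libraries, without overlap (log2 fold change -0.14, SE 0.0727, adjusted p = 0.25). Scamp2 had 47.8, 57.6, 55.2 and 54.1 CPM in the WT libraries and 43.9, 49.1, 40.8 and 49.4 CPM in the Dp16 libraries, with Dp16 replicates 2 and 4 above the lowest WT library (log2 fold change -0.23, SE 0.088, adjusted p = 0.159). The Scamp2 to Scamp1 ratio per kilobase was 0.932 to 1.1 over the libraries by merged exons, and 1.2 to 1.41 by longest transcript, with Scamp2 higher in all 8. Their log2 ratio in CPM overlapped between groups (exact permutation p = 0.20).

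Over all 13 paralog or partner pairs, 4 ratios separated the groups, those of Rab3a to Rab3d, Sytl1 and Sytl4 to Sytl2, and Unc13d to Unc13b, and 0 passed after adjustment over the pairs (lowest adjusted p = 0.0929, exact permutation). The other 9 pairs overlapped. Each of the 4 ratios holds a gene whose groups did not overlap on its own (Rab3a, Sytl2 or Unc13d). These ratios are therefore not separate from those single-gene differences. With 4 libraries against 4 the smallest exact p is 0.0286. After adjustment over 13 pairs, a ratio could pass only if most of the pairs reached this smallest p. The adjusted test could therefore hardly pass, and it does not show that the ratios are alike.

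A wider list of 87 other genes of the pathway was read in the same fit. Of the 80 tested, 0 passed the edgeR test in either direction; 5 were higher and 8 lower at an unadjusted p below 0.05 (16.2%, against 24.6% of all genes). By value 38 were lower and 42 higher, with a median log2 fold change of 0.02 against 0.01 over all genes. DESeq2 passed 2 upward and 2 downward, and limma-voom 1, Rab37, upward (1.28% of all genes).

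Rab37, a Rab known from mast cell granules, had 0.322, 0.167, 0.198 and 0.0954 CPM in the WT libraries and 0.859, 0.685, 0.548 and 0.599 CPM in the Dp16 libraries (log2 fold change 1.78, SE 0.359, adjusted p = 0.059), the smallest p of the wider list. Next by p were Stx5a, a Golgi syntaxin (log2 fold change -0.42, SE 0.116, adjusted p = 0.091), Scamp3 (log2 fold change -0.28, SE 0.0797, adjusted p = 0.0993) and Vti1b, an endosomal SNARE (log2 fold change -0.20, SE 0.0616, adjusted p = 0.111). Madd, an exchange factor that activates Rab3 and Rab27, followed with 43.8 ± 5.92 CPM in the WT libraries against 33.6 ± 4.71 CPM in those of Dp16 (SD, n = 4 each; edgeR log2 fold change -0.38, SE 0.124, adjusted p = 0.122). Sytl3, another Rab27 effector of the Slp family, had 3.16, 1.74, 2.47 and 1.47 CPM in the WT libraries and 4.58, 3.99, 6.23 and 2.43 CPM in the Dp16 libraries (log2 fold change 0.96, SE 0.315, adjusted p = 0.122). Rab37 and Sytl3 were thus higher by value in Dp16, as was the member Sytl2, whereas Stx5a, Scamp3, Vti1b and Madd were lower. None of these genes passed the edgeR test.

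The other marker lists gave a view of the gland beside these values. All 14 acinar markers tested were lower in Dp16 by value, with a median log2 fold change of -0.28 and 0 passing the edgeR test. DESeq2 passed 3 of the 11 to which it gave an adjusted p, and limma-voom passed 1, all lower. Of the granular duct markers DESeq2 passed 3 and limma-voom 1, also lower. Over all genes, 4.33% passed as lower by DESeq2 and 0.77% by limma-voom. The 18 granular duct markers had a median of -0.63, other duct markers 0.08, myoepithelial markers -0.18, fibroblast markers -0.25, endothelial markers 0.38 and mast cell and platelet markers -0.13. The part of shifts in cell makeup in the small differences of the members was not tested.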

How the data were processed

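The authors deposited unnormalised gene counts for each library. Per the submitters' processing notes, the tools were FastQC, STAR, HTSeq and DESeq2, with build GRCm38; for versions, annotation release and strand setting the sources used here give nothing. Rows naming no gene (58.1% to 65.4% of reads) were left out. Most of these reads had no unique alignment (37.1% to 43.9% of reads in WT and 35.8% to 38.2% in Dp16), and their part in the results was not tested. Gene names and exon lengths came from GENCODE M21, which matched 54809 of 54838 genes. For 10 members, exon bases are shared with another gene. Where that gene lies on the opposite strand, the counts depend on how strand was used. For Rab26, Rab27a and Rab11a a sharing gene lies on the same strand, and strand cannot separate those reads.

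Counts were fitted in R 4.3.3 with edgeR 4.0.16 (filterByExpr, TMM, glmQLFit and glmQLFTest, no covariate), with Benjamini-Hochberg adjustment over 19358 genes and a threshold of 0.05. Log2 CPM used a prior count of 2. Paralog ratios were tested by exact permutation over 35 splits. All tests were two-sided. Alternatives were DESeq2 1.42.0, limma 3.58.1 (voom with quality weights), other scalings, filters, prior count and threshold, a replicate block, and each library left out. On simulated data with 18993 genes, edgeR recovered 28.4% of genes changed 1.5-fold, 62.7% changed 2-fold and 98.5% changed 4-fold. The changes were placed only in genes above a minimum mean CPM, which Rab3b, Syt7 and Sytl2 did not reach.

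All 38 members were named; those with an unadjusted p below 0.05, no overlap, or an extreme place in their family got per-library values, as did up to 6 other pathway genes by smallest p. The members and lists were chosen with earlier results of these data known.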

Additional observations from a re-analysis of the deposited data

Results flagged for a closer look

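Rab27b stood at 70.9 CPM in WT replicate 1, while the other 3 WT libraries lay between 53.1 and 55.6 CPM; the gap to the nearest was 0.856 of the group's range. Exoc7 stood at 16.3 CPM in WT replicate 2, with the other WT libraries between 15.99 and 16.03 CPM, a gap of 0.899 of a very narrow range. These were 2 of 76 groups of 4 examined (38 genes in 2 genotypes), and chance marks about 1 in 20 such groups.

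Reads that overlapped no counted feature made up 19.8% ± 1.16 of all reads in Dp16 (18.4% to 20.8%) and 14.98% ± 0.965 in WT (13.8% to 15.9%; SD, n = 4 each), and the groups did not overlap. These reads enter no gene's count. Their part in the results was not tested.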

How the results depend on the processing

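Of the 38 members 0 passed edgeR in the main analysis, and 0 passed with either other scaling, with no expression filter, with the replicate block, or without any 1 library (lowest adjusted p 0.0502, Rab3a, without Dp16 replicate 4). DESeq2 passed 5, limma-voom 1, and an adjusted p below 0.10 passed 4 (Rab3a, Sytl2, Myo5a and Snap23; 6.76% of all genes). Wider pathway genes went from 0 to 4 with DESeq2, 1 without a filter, 1 with limma-voom, 2 with the block and 3 at 0.10. Over all genes, 121 passed; DESeq2 gave 1991, no filter 223, limma-voom 396, the block 776 and 0.10 gave 1308, and leaving out 1 library gave 0 to 446. The count without WT replicates 1 to 4 was 63, 0, 4 and 11, and without Dp16 replicates 1 to 4 it was 0, 446, 56 and 14. The median of the members stayed between -0.16 and -0.09 in these leave-one-out fits, and 31 of 38 members kept their sign in all settings; Rab3d, Rab27a, Rab27b, Rab26, Stx4a, Stxbp2 and Exoc1 did not. The cause of these shifts was not tested. Same-numbered libraries correlated in their deviations at 0.191, 0.129, 0.0777 and 0.105. WT replicates 3 and 4 correlated best with another number, but only slightly more (0.0874 with Dp16 replicate 1 and 0.131 with Dp16 replicate 2). These correlations do not settle whether the numbers mark pairs. The labels give no covariate, and the numbers were not taken as pairs in the main fit. For the paralog ratios the exact permutation within blocks cannot go below p = 0.125. Depth limits Rab3b and Syt7, with at most 29 and 50 reads.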

Other observations

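Several other genes of the pathway had higher levels than their relatives among the 38 members, given here in CPM per kilobase in WT (mean ± SD, n = 4). The genes named here were chosen after their values were seen, and none of them passed the edgeR test between genotypes. Among myosin V motors, Myo5c, the one of exocrine glands, had 14.4 ± 0.345 and Myo5b 5.44 ± 0.303, against 1.49 ± 0.118 for Myo5a. Mlph (melanophilin), which links Rab27 to myosin V, had 13.2 ± 0.861, and the Slp member Sytl5 had 12.8 ± 2.94, above Sytl1, Sytl2 and Sytl4. Cadps2, a priming factor of dense-core granules, had 20.9 ± 3.12, while the neuronal Munc13 genes Unc13a and Unc13c had 0.0313 ± 0.00557 and 0.0371 ± 0.0119. The late endosomal syntaxin Stx7 had 45.2 ± 2.72, more than any syntaxin among the members.

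Synaptotagmins were scarce. Of the 10 tested besides Syt7, Syt16 was highest at 1.95 ± 0.95, followed by Syt11 at 0.657 ± 0.0624 and Syt3 at 0.586 ± 0.0665, against 0.056 ± 0.0123 for Syt7. Syt16 varied widely between libraries, from 5.51 to 24.1 CPM in WT and from 3.06 to 28.0 CPM in Dp16, and the groups overlapped (edgeR log2 fold change -0.47, SE 0.702, adjusted p = 0.704). Among Sec1/Munc18 proteins, Stxbp2 at 8.99 ± 0.663 stood above Stxbp3 at 4.36 ± 0.285. The synaptic SNARE Snap25 had 0.0349 ± 0.0249, against 17.4 ± 0.784 for Snap23.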
